A study of Mus musculus with 3 samples.

Results

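The genes described here are 32 of the 18245 genes of the table, taken by symbol because they are used to recognise macrophages: genes of macrophage identity, of resident macrophages and of macrophages recruited from blood. All 32 had a row. They were followed through 9 libraries from 3 kinds of C57BL/6 mouse cell, all labelled as ventricle epicardium. Cardiosphere-derived cells (CDC) grew out of peeled epicardium of young adult mice and passed through floating spheres. The kind CDC-EpiC is 1 epithelial clone, picked from CDC cultures given 10 µM SB-431542, which blocks the receptor kinase ALK5 of the TGF-beta pathway, under which clones formed in 2 weeks. Primary epicardial cells (pEpiC) came from whole hearts of young adult mice digested with collagenase and trypsin, and were grown on gelatin without the inhibitor. No sort or gate on CD45 or another leukocyte protein is described for any kind before RNA extraction. By flow cytometry, the paper reports primary CDC and pEpiC as negative for CD45 protein. That is protein on cells and not RNA in bulk, and whether the same cultures were sequenced is not stated.

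Macrophages are phagocytes that enter the heart in the embryo or arrive later as blood monocytes, and they are found in the epicardium and between the muscle cells. They need signalling through the receptor Csf1r to survive and depend on the transcription factor PU.1, encoded by Spi1. They make the complement protein C1q, carry Fc receptors that bind antibody, and digest what they take up in lysosomes. In bulk RNA such as this, fewer cells of a type and less RNA per cell cannot be told apart.

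Each library held 22008833 to 22756045 counts. Whether the 3 libraries of a kind are animals, cultures or extractions is not stated in the labels, which list 1 sample for each. The extraction protocol speaks of 3 separate samples, and the methods name fewer biological replicates than there are libraries, so the p-values measure the spread between these libraries, which may be technical. Between libraries of a kind the counts varied beyond read sampling (chi-square per degree of freedom 4.89 to 23.02). The 6 epicardial markers summed to 317, 321 and 325 CPM in pEpiC libraries 1, 2 and 3, and none was at 0. Here CPM is counts per 1000000 after scaling by trimmed mean of M-values (TMM). They summed to 393, 407 and 397 CPM in CDC and to 2756, 3199 and 2975 in CDC-EpiC, so pEpiC was the lowest kind. Most of the CDC-EpiC sum was Upk3b, with 55583, 63219 and 59525 counts. The 5 fibroblast markers, with Col1a1 and Col3a1 among them, summed to 30522, 32573 and 33281 CPM in pEpiC. In CDC they summed to 11390, 9300 and 12372 CPM, and in CDC-EpiC to 6405, 7927 and 7219. Hba-a1, a red blood cell marker, reached 523 and 894 counts in CDC libraries 1 and 2 but 0 in CDC library 3, and no other library passed 1. Myh6, a cardiomyocyte marker, had 191, 190 and 0 counts in the CDC libraries and Actc1 had 64, 50 and 1. The part of these cells in the CDC values was tested only by using CDC library 3 alone.

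The macrophage genes were read in pEpiC and were at or near 0 in CDC and in the clone for most members. Of the 32, 15 had at most 3 counts in every CDC and CDC-EpiC library, and 23 had at most 3 in every CDC-EpiC library. The 32 genes together summed to 76.2, 78.0 and 76.7 CPM in CDC, to 35.3, 33.7 and 31.99 CPM in CDC-EpiC, and to 1310, 478 and 455 CPM in pEpiC libraries 1, 2 and 3. pEpiC was above the other kinds in each of its libraries, and its library 1 stood above its libraries 2 and 3. Without Lyz2, which encodes lysozyme, the sums were 38.0, 38.6 and 41.2 CPM in CDC, 34.4, 32.8 and 30.8 CPM in CDC-EpiC, and 869, 284 and 290 CPM in pEpiC.

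**Figure D1:**
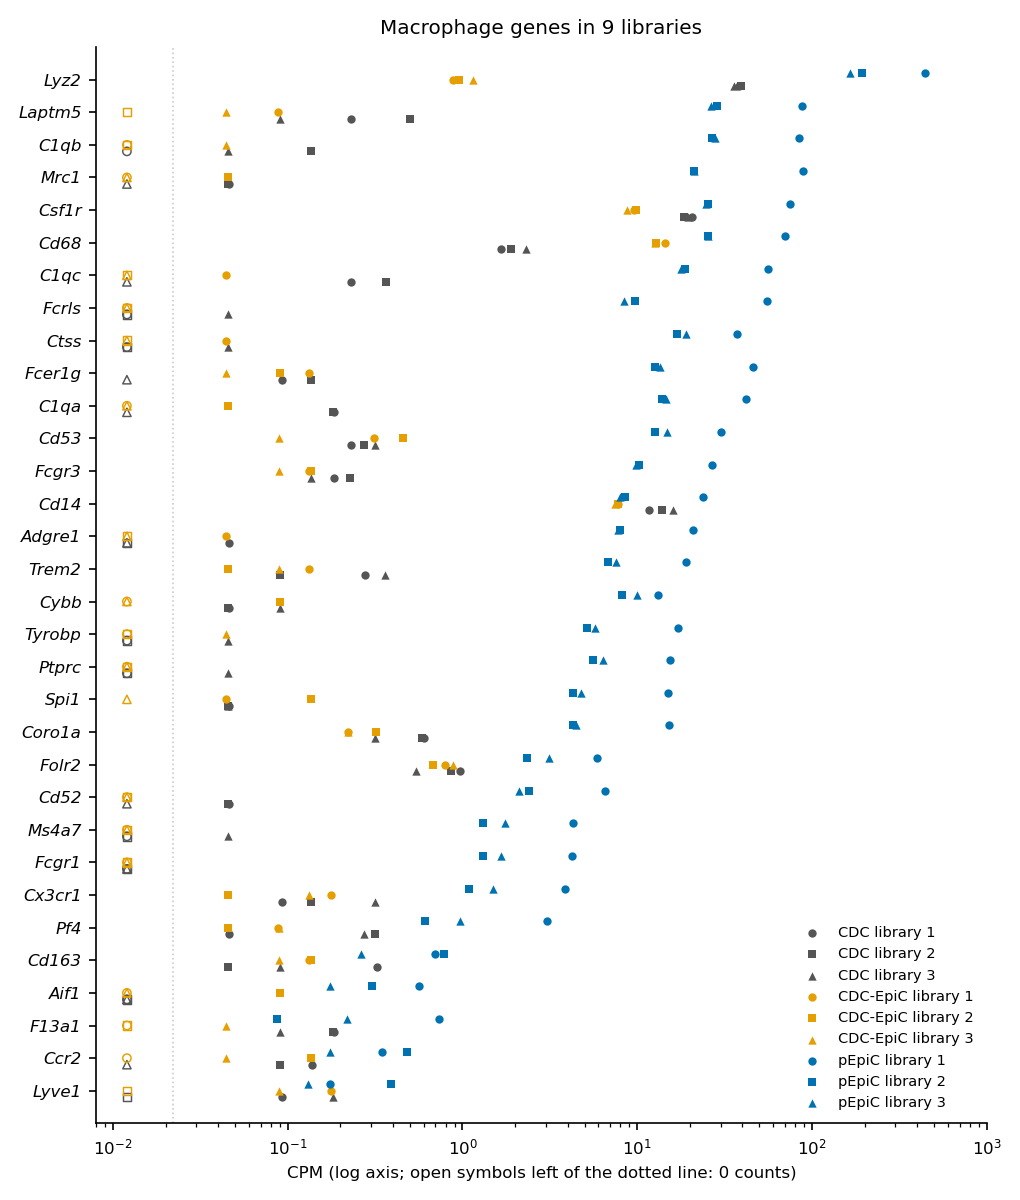
Level of each of the 32 macrophage genes in CPM on a log axis, 1 symbol per library, with open symbols at the left edge for 0 counts. The pEpiC libraries (blue) lie to the right of CDC (grey) and CDC-EpiC (orange) for most genes, Cd14, Cd163, Lyve1 and F13a1 overlap between pEpiC and CDC, and pEpiC library 1 (blue circles) is the highest pEpiC library for 29 genes.

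The 4 defining markers were read in all 3 pEpiC libraries. Ptprc, which encodes CD45, the surface phosphatase of all white blood cells, had 0, 0 and 1 counts in CDC, 0 in each CDC-EpiC library, and 355, 128 and 146 in pEpiC libraries 1, 2 and 3. Adgre1, which encodes the mouse macrophage protein F4/80, had 1, 0 and 0 counts in CDC, 1, 0 and 0 in CDC-EpiC, and 483, 184 and 178 in pEpiC. C1qb, the B chain of complement C1q, had 0, 3 and 1 counts in CDC, 0, 0 and 1 in CDC-EpiC, and 1944, 614 and 639 in pEpiC. For each of these genes the lowest pEpiC library was far above every library of the other kinds, and libraries 2 and 3 of pEpiC lay close together. Mrc1, the mannose receptor CD206 of tissue macrophages, had 1, 1 and 0 counts in CDC, 0, 1 and 0 in CDC-EpiC, and 2047, 485 and 481 in pEpiC. The members, these 4 markers among them, were chosen with earlier results of these data known. Their presence in pEpiC is thus a description and no check of the label.

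The pEpiC to CDC ratio of summed CPM had wide intervals for these markers because CDC gave so few counts. It was 601 for Ptprc, with a 95% counting interval of 107 to 23778, and 394 (70.1 to 15606) without pEpiC library 1. It was 807 (145 to 31931) for Adgre1 and 520 (92.8 to 20601) without library 1. For C1qb it was 764 (298 to 2805) and 450 (175 to 1655) without library 1. Mrc1 had the largest ratio of the 4, 1440 (398 to 11893), which was 694 (192 to 5739) without library 1. The lower ends of all these intervals were above 1. By the quasi-likelihood test of edgeR, with Benjamini-Hochberg adjustment over all genes tested, the adjusted p was 3.5e-06 for Ptprc, 3.1e-06 for Adgre1, 4.5e-06 for C1qb and 2.3e-05 for Mrc1. The fitted log2 changes were 8.74 (SE 0.80) for Ptprc, 9.17 (SE 0.82) for Adgre1, 9.41 (SE 0.89) for C1qb and 10.21 (SE 1.201) for Mrc1, values that depend on the prior count added to CDC.

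Spi1 itself, which encodes PU.1, had 1 count in each CDC library, 1, 3 and 0 in CDC-EpiC and 347, 99 and 109 in pEpiC. As background, PU.1 binds DNA with a GGAA core, often within the letters GAGGAA or GAGGAAGT. Because so many members moved together, promoter windows of 300 bases (250 before to 50 after the start, RefSeq, GRCm38.p6) were searched for these letters on both strands. Of the 32 members, 24 had a window in the table, with 30 windows in all. GAGGAA or its reverse TTCCTC was found in 19 of the 30 windows (63.3%) and in 28.3% of the 32851 windows of the table. Counted by gene, 17 of 24 members (70.8%) held it in at least 1 window, and 31.3% of all genes did. The longer GAGGAAGT, which contains the shorter letters, or its reverse ACTTCCTC was found in 5 of 30 windows (16.7%), against 3.20% of all. A match describes letters only, and binding was not measured here.

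5 windows of abundant members and markers are printed as examples, chosen after the matches were seen: 4 with a match and that of Lyz2 without. The letters searched are in capitals, and each run reads 5′ to 3′ on the gene's strand.
C1qb, chr4:136886151-136886450, minus strand: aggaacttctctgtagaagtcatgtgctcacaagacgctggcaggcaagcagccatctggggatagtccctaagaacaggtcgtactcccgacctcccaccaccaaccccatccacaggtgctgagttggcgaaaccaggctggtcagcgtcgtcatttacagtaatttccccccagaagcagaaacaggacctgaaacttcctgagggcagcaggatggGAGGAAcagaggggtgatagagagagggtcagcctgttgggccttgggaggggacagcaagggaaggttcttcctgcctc
C1qc, chr4:136892865-136893164, minus strand: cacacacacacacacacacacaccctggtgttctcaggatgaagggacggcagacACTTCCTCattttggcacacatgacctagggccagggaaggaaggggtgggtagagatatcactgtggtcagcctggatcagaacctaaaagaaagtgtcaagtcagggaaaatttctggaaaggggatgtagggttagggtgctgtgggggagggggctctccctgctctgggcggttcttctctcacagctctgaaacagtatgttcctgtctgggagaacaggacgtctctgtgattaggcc
Ctss, chr3:95526536-95526835, plus strand: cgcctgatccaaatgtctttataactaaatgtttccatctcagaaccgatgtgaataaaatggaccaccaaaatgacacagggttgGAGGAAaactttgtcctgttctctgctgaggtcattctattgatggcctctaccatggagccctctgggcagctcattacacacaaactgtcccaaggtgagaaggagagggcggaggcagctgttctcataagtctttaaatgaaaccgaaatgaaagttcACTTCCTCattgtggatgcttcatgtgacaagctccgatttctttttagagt
Mrc1, chr2:14229164-14229463, plus strand: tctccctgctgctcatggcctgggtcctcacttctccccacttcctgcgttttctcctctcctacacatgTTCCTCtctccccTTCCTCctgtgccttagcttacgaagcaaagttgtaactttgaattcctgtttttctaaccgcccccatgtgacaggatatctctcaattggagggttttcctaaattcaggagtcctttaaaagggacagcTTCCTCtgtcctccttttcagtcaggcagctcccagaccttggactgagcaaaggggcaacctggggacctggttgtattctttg
Lyz2, chr10:117282223-117282522, minus strand: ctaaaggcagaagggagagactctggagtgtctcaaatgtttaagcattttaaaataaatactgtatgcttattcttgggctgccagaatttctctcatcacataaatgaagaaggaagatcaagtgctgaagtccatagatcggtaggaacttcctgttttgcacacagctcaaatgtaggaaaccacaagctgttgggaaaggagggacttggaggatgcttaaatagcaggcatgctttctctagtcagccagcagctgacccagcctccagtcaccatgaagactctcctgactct
C1qb, C1qc and C1qa are neighbours on chromosome 4 of GRCm38.p6, with C1qb at chr4:136880126-136886200, C1qc at chr4:136889801-136892936 and C1qa at chr4:136895916-136898844. The match in C1qb lay 30 to 25 bases before the start. In C1qc the longer letters lay 195 to 188 bases before the start from which its window was cut. That start lies inside the gene coordinates printed here. Ctss held the longer letters across its start, from 2 bases before it to 5 after, and a further match 164 to 159 bases before. Mrc1 held 3 matches, the nearest 35 to 30 bases before the start. Lyz2, the member with the highest level, held none of these letters in its window.

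Complement, Fc receptor and lysosomal genes were the most abundant members in pEpiC. In transcripts per 1000000 (TPM), a scale that corrects for transcript length, the mean level in pEpiC was highest for Lyz2 at 619 ± 345 (SD, n = 3), and then came C1qb at 107 ± 74.5, Fcer1g at 91.9 ± 71.6 and Cd68 at 78.9 ± 49.9. C1qc followed at 72.1 ± 49.6 TPM, C1qa at 53.0 ± 35.2, Laptm5 at 47.9 ± 34.4 and Ctss at 44.5 ± 19.4. Below Lyz2 neighbouring values in this order lay within each other's SD, which does not compare genes inside a library. Inside every pEpiC library C1qb lay above Fcer1g, Cd68 above C1qc, C1qc above C1qa and C1qa above Laptm5. Fcer1g and Cd68 changed order between libraries, and so did Laptm5 and Ctss. The large SDs came with library 1, in which Lyz2 stood at 1015 TPM, against 460 and 383 in libraries 2 and 3.

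The other C1q chains followed C1qb. C1qa had 4, 4 and 0 counts in CDC, 0, 1 and 0 in CDC-EpiC and 962, 319 and 335 in pEpiC. C1qc had 5, 8 and 0 in CDC, 1, 0 and 0 in CDC-EpiC and 1287, 432 and 409 in pEpiC. All 3 chains, which together form the C1q protein, were thus read in every pEpiC library and lay above every CDC library. The few CDC counts of C1qa and C1qc fell in CDC libraries 1 and 2, those with red blood cell and cardiomyocyte counts. Mrc1 and Fcer1g also had 0 counts in CDC library 3, while Ptprc, Ctss, Tyrobp, Fcrls and Ms4a7 had their only CDC count there. All 7 had at most 3 counts in a CDC library. The members together summed to 76.2, 78.0 and 76.7 CPM in CDC libraries 1, 2 and 3. Most of that was Lyz2, Csf1r and Cd14, at 38.1, 20.7 and 11.6 CPM in library 1, so the sum says little about the other members. With CDC library 3 alone the log2 change was 12.05 for C1qa and 12.44 for C1qc, values that rest on 0 counts in CDC. The change from CDC to pEpiC was log2 7.48 (SE 0.74, adjusted p 6.2e-06 in edgeR) for C1qa and 7.20 (SE 0.74, adjusted p 8.5e-06) for C1qc. The ratio of summed CPM was 193 (97.7 to 448) for C1qa and 156 (91.3 to 294) for C1qc, and without pEpiC library 1 it was 117 and 93.0.

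Fc receptor genes, Trem2 and the adaptor genes Fcer1g and Tyrobp rose as well. Fcer1g, the common gamma chain through which Fc receptors signal, had 2, 3 and 0 counts in CDC, 3, 2 and 1 in CDC-EpiC and 1066, 291 and 310 in pEpiC (log2 8.17 over CDC, SE 0.90, adjusted p 1.4e-05 in edgeR), a ratio of 319 (136 to 982), or 173 without library 1. Tyrobp, the adaptor DAP12 that carries signals from Trem2, rose from at most 1 count in any CDC library to 396, 119 and 131. Trem2, a receptor for lipids, had 6, 2 and 8 counts in CDC against 436, 156 and 173 in pEpiC. Fcgr3, a low-affinity receptor for antibody, had 4, 5 and 3 counts in CDC against 617, 235 and 224 in pEpiC. Fcgr1, the high-affinity receptor, had 0 counts in every CDC and CDC-EpiC library and 98, 30 and 38 in pEpiC, at least 52.9-fold higher in pEpiC than in CDC against a floor of 3 counts over the group, and at least 25.8-fold without library 1. The groups did not overlap for any of these 5 genes, and each passed in edgeR.

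Genes of the lysosome and of leukocyte signalling rose with them. Ctss, cathepsin S, a lysosomal protease, had 0, 0 and 1 counts in CDC, 1, 0 and 0 in CDC-EpiC and 857, 390 and 436 in pEpiC (log2 10.16 over CDC, SE 0.66, adjusted p 3.1e-07 in edgeR, ratio 1608 with an interval of 288 to 63560, 1187 without library 1). Laptm5, a lysosomal membrane protein of blood cells, had 5, 11 and 2 counts in CDC, 2, 0 and 1 in CDC-EpiC and 2036, 661 and 606 in pEpiC (log2 7.38, SE 0.75, adjusted p 7.6e-06, ratio 175 with an interval of 111 to 296, 101 without library 1). Cybb, the catalytic subunit of the phagocyte NADPH oxidase, had 1, 1 and 2 counts in CDC against 304, 188 and 227 in pEpiC. Coro1a, an actin-binding protein of leukocytes, Cd53, a tetraspanin, and Cd52, a small surface glycoprotein, also rose. Of these, Coro1a went from 13, 13 and 7 counts in CDC to 350, 99 and 102 in pEpiC.

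Counting every member, 28 of the 32 had all 3 pEpiC libraries above all 3 CDC libraries, where 35.6% of all genes with a count did. In edgeR, 27 of the 32 could be tested, 26 were higher in pEpiC and none was lower, where 39.8% of the genes tested were higher and 38.5% lower. The only tested member that did not pass was Cd14. Of the 27, 22 had under 10 counts in at least 1 CDC library and entered the test through their pEpiC counts, so the share that passed is a description. Without library 1 of pEpiC, 26 still passed and were higher. Over the 30 members with a count in CDC, the median ratio of pEpiC to CDC was 103, and it was 64.5 without library 1, which moved the ratio by more than 1.5 times for 22 of them. The 5 members below the filter were Lyve1, Cd163, F13a1, Ccr2 and Aif1, none of which passed 18 counts in a pEpiC library.

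**Figure D2:**
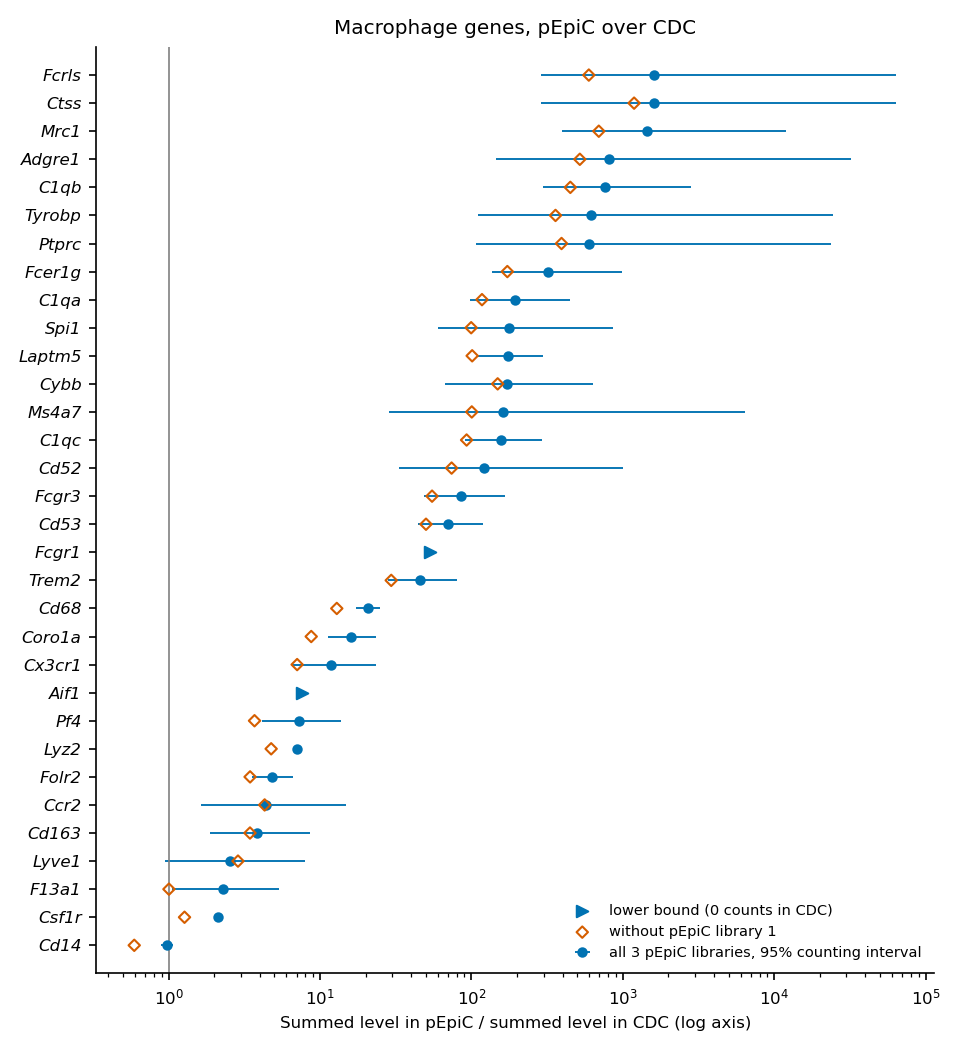
Ratio of the summed level in pEpiC to that in CDC for each of the 32 genes on a log axis, with 95% counting intervals, lower bounds as triangles for genes at 0 counts in CDC, and the ratio without pEpiC library 1 as open diamonds. Fcrls, Ctss and Mrc1 have ratios of 1616, 1608 and 1440 that rest on 1 or 2 counts in CDC and have overlapping intervals, and without library 1 they are 596, 1187 and 694, while Cd14 lies at 0.971, or 0.593 without library 1.

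Members that mark resident and recruited subsets were uneven. Fcrls, a receptor-like gene of tissue macrophages and microglia, had 0, 0 and 1 counts in CDC against 1276, 223 and 192 in pEpiC, a ratio of 1616 (290 to 63862), or 596 without library 1. Folr2, a folate receptor of resident macrophages, had 21, 19 and 12 counts in CDC against 136, 54 and 71 in pEpiC (log2 2.21, SE 0.38, adjusted p 3.6e-04 in edgeR). Both passed, and their groups did not overlap. Lyve1, a hyaluronan receptor of resident macrophages and lymphatic vessels, had 2, 0 and 4 counts in CDC against 4, 9 and 3 in pEpiC, a ratio of 2.55 with an interval of 0.947 to 7.95. Cd163, the haemoglobin scavenger receptor, had 7, 1 and 2 counts in CDC against 16, 18 and 6 in pEpiC. The libraries of the kinds overlapped for both genes, and for Lyve1 a difference was not detectable at this depth.

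Among genes of recruited cells, Ccr2, the chemokine receptor by which monocytes leave the bone marrow, had 3, 2 and 0 counts in CDC against 8, 11 and 4 in pEpiC. F13a1, coagulation factor XIII, had 4, 4 and 2 counts in CDC against 17, 2 and 5 in pEpiC, with overlap. Ccr2 did not overlap between the kinds, yet at 0.227 ± 0.0950 TPM in pEpiC it was among the lowest members. Cx3cr1, the fractalkine receptor, was higher, with 2, 3 and 7 counts in CDC against 89, 25 and 34 in pEpiC. Ms4a7 and Pf4, both made by macrophages, rose from at most 1 and at most 7 counts per CDC library to 99, 30 and 40 and to 70, 14 and 22. Aif1, which encodes the macrophage protein Iba1, had 0 counts in CDC against only 13, 7 and 4 in pEpiC.

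A few members were also read in CDC, and there the 3 kinds could be compared at measurable levels. Lyz2 had 827, 867 and 786 counts in CDC, 20, 21 and 26 in CDC-EpiC and 10174, 4453 and 3761 in pEpiC. From CDC to pEpiC its mean went from 37.7 ± 1.91 CPM up to 267 ± 152 (a rise of log2 2.78 with SE 0.33 and adjusted p 2.3e-05 in edgeR), and its pEpiC mean was 179 CPM without library 1. The neighbouring gene Lyz1 is a near copy, so the reads given to Lyz2 could in part belong to it. Cd68, a lysosomal glycoprotein of macrophages that other cells also make, had 36, 42 and 51 counts in CDC, 328, 281 and 284 in CDC-EpiC and 1624, 581 and 578 in pEpiC. Its order was thus CDC, then the clone, then pEpiC, with no overlap. From CDC to pEpiC its mean went from 1.96 ± 0.328 CPM up to 40.3 ± 26.0 (a rise of log2 4.32 with SE 0.47 and adjusted p 1.2e-05), or to 25.3 CPM without library 1.

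Csf1r and Cd14 depended on pEpiC library 1. Csf1r, the receptor for the macrophage growth factors CSF1 and IL-34, had 448, 409 and 434 counts in CDC, 217, 216 and 197 in CDC-EpiC and 1717, 582 and 563 in pEpiC. It was higher in pEpiC than in CDC (41.5 ± 28.5 against 19.6 ± 1.06 CPM; a log2 change of 1.04 with SE 0.37 and adjusted p 0.0265 in edgeR). Without library 1 the change was 0.30 (adjusted p 0.00614). DESeq2 gave it an adjusted p of 0.0872, and it missed the threshold when any 1 CDC library was left out. Over its alternatives the adjusted p ranged from 4.8e-04 to 0.218. Cd14, the co-receptor for bacterial lipopolysaccharide, had 252, 306 and 355 counts in CDC, 176, 170 and 169 in CDC-EpiC and 551, 195 and 182 in pEpiC. pEpiC library 1 lay above CDC and the other 2 pEpiC libraries lay below it. The change was log2 −0.09 (SE 0.36, adjusted p 0.834 in edgeR) and turned positive under library-size scaling and with TPM. Without pEpiC library 1 Cd14 was lower in pEpiC, with log2 −0.80 and an adjusted p of 4.6e-04.

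The clone held less of 3 members that CDC held at measurable levels and more of 1. Of the 32, 5 could be tested in CDC-EpiC against CDC. Cd68 was the 1 that was higher, where 34.2% of the genes tested were higher, and Lyz2, Csf1r and Cd14 were the 3 that were lower, where 34.6% were lower. Lyz2 fell from 37.7 ± 1.91 CPM down to 0.997 ± 0.139 (log2 −5.24 with SE 0.13 and adjusted p 5.2e-14 in edgeR). Csf1r fell from 19.6 ± 1.06 CPM down to 9.38 ± 0.571 (log2 −1.07 with SE 0.09 and adjusted p 9.0e-08). Cd14 fell from 13.9 ± 2.23 CPM down to 7.66 ± 0.155 (log2 −0.86 with SE 0.12 and adjusted p 1.7e-05). Cd68 rose from 1.96 ± 0.328 CPM up to 13.3 ± 1.06 (log2 2.75 with SE 0.15 and adjusted p 2.6e-10). Folr2, with 21, 19 and 12 counts in CDC against 18, 15 and 20 in the clone, did not pass (log2 −0.01, SE 0.30, adjusted p 0.979). The libraries of Lyz2, Csf1r, Cd14 and Cd68 did not overlap between the kinds, but the share of all genes without overlap was not counted for this comparison. Since the 3 CDC-EpiC libraries are of 1 clone, their spread holds no difference between clones.

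Against pEpiC, 27 members could be tested in the clone, and 26 were lower there, where 41.5% of the genes tested were lower. Cd14 was again the exception (log2 −0.82, SE 0.37, adjusted p 0.0659 in edgeR). It passed without pEpiC library 2 (adjusted p 0.0255) and without library 3 (0.0176), and over its alternatives the adjusted p ranged from 0.0176 to 0.435. This comparison shares the pEpiC libraries with the comparison against CDC. In the clone, 23 members had at most 3 counts in every library. Those of them that were tested entered through their pEpiC counts, so the share that was lower is a description. Lyz2 was lower in the clone than in pEpiC by a log2 change of −8.06 (SE 0.53, adjusted p 2.8e-07), Csf1r by −2.15 (SE 0.41, adjusted p 7.1e-04) and Cd68 by −1.61 (SE 0.37, adjusted p 0.00245). Without pEpiC library 1 these changes were −7.49 for Lyz2 (adjusted p 5.3e-13), −1.42 for Csf1r (4.0e-08) and −0.93 for Cd68 (1.6e-06). Ptprc, Fcrls, Ms4a7, Cd52 and Fcgr1 were at 0 counts in all 3 libraries of the clone.

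The pEpiC libraries differed among themselves in these genes. The level in library 1 was divided by the mean of libraries 2 and 3 for the 31 members with at least 20 counts over the 3 pEpiC libraries, all but Lyve1. The median ratio was 2.89, and 28 of the 31 had a ratio of at least 2, where 2.39% of the 13894 genes with such counts did (332 genes). Over all these genes the median ratio was 0.9996 and the central 95% lay between 0.677 and 1.99. Libraries 2 and 3 were alike, with a median ratio of library 2 to library 3 of 0.956 over the members. With 1 library against 2, the difference has no test. The epicardial markers had a median ratio of 0.945 and the fibroblast markers of 0.961, so the 3 libraries lay close together in these markers. The part of cell number or of RNA per cell in the difference between libraries was not tested.

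**Figure D3:**
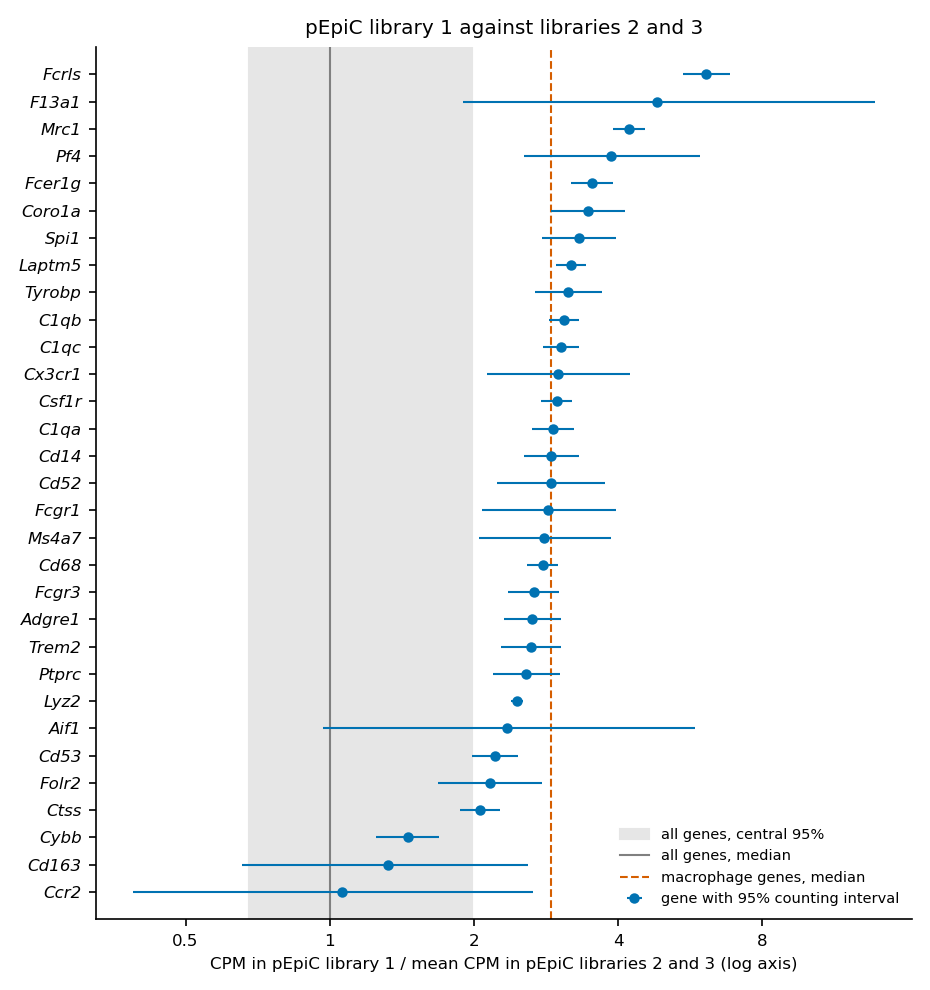
CPM in pEpiC library 1 divided by the mean CPM of libraries 2 and 3 for 31 macrophage genes on a log axis, with 95% counting intervals and a grey band for the central 95% of all genes. The genes cluster around their median of 2.89, with Ccr2, Cd163 and Cybb below 2 and Fcrls farthest right at 6.11.

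The members did not all share that ratio. C1qa, C1qb and C1qc had ratios of 2.92 (2.64 to 3.23), 3.08 (2.87 to 3.31) and 3.04 (2.78 to 3.32), within each other's counting intervals, and Csf1r and Cd68 lay near them at 2.98 and 2.78. Mrc1 was higher at 4.21 (3.90 to 4.55) and Fcrls higher still at 6.11 (5.46 to 6.84), so that the intervals of both lay above those of the C1q chains. Cybb was lower at 1.45 (1.25 to 1.69) and Ctss at 2.06 (1.87 to 2.27). Lyz2 stood at 2.46 (2.39 to 2.53) and Ptprc at 2.57 (2.19 to 3.02). PCR copies are not separate molecules, so all these intervals cover counting error only. Library 1 was the highest pEpiC library in CPM for 29 of the 32 members and library 2 for Cd163, Ccr2 and Lyve1, which had at most 18 counts in a library.

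Most further genes of myeloid signalling were higher in pEpiC than in CDC. Of 20 listed, 19 could be tested, with 15 higher and 2 lower (Cebpb and Irf5). Of all genes tested, 39.8% were higher and 38.5% lower. Genes near 0 in CDC entered the test through their pEpiC counts, so the count is a description. With at least 10 counts required in every library, 7 were higher. The median log2 change of the list was 3.79, against 0.02 over all genes tested and 7.20 over the members tested. Dock2, which moves leukocytes by activating Rac, rose most, from at most 1 count per CDC library to 319, 121 and 117 (log2 8.57, SE 0.82, adjusted p 4.8e-06 in edgeR). Irf8, a transcription factor of monocytes and macrophages, had 1, 6 and 1 counts in CDC against 152, 69 and 45 in pEpiC, and Ikzf1, a transcription factor of blood cells, had 0, 3 and 0 and 120, 46 and 35. The median library 1 ratio of the list was 2.43, and 10 of 19 genes were at 2 or more. Irf5 did not pass under several alternatives, and its change was small (log2 −0.37).

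Some phagocyte receptors were near 0 outside pEpiC and others were read in all kinds. Of 23 listed genes, 22 could be tested, 21 were higher and 1, Axl, was lower. Of all genes tested, 39.8% were higher and 38.5% lower. Genes near 0 in CDC, such as Msr1, Itgam and Tlr7, entered the test through their pEpiC counts. The median log2 change of the list was 1.28. Msr1, a scavenger receptor, had 0 counts in every CDC and CDC-EpiC library and 540, 214 and 218 in pEpiC. Itgam, which encodes CD11b, had 6, 0 and 3 counts in CDC against 1141, 363 and 398 in pEpiC, and Tlr7, a sensor of single-stranded RNA, had 1, 1 and 0 and 355, 118 and 86. Lysosomal genes that most cells make rose by unlike amounts. Ctsd changed little, with 41315, 41220 and 43246 counts in CDC against 60391, 50729 and 51265 in pEpiC (log2 0.26, SE 0.08, adjusted p 0.0106 in edgeR). Ctsl rose more, from 9856, 9684 and 12826 counts to 34526, 32446 and 33809 (log2 1.53, SE 0.10, adjusted p 3.2e-07). The median library 1 ratio of the list was 1.16, with 5 of 22 genes at 2 or more. With TPM the changes of Axl, Irf5 and H2-DMa turned positive and did not pass.

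Most genes of antigen presentation did not follow. Of 7 genes of MHC class II, 3 could be tested, 1 was higher (H2-Ab1) and 1 lower (H2-DMa, log2 −0.32, lost under several alternatives). Of all genes tested, 39.8% were higher and 38.5% lower. H2-Aa had 0 counts in each pEpiC library, Cd74, the invariant chain, had 14, 6 and 10 against 10, 9 and 4 in CDC, and Ciita, their transcriptional activator, had 4, 2 and 3. H2-Ab1 had 3, 2 and 1 counts in CDC against 20, 20 and 17 in pEpiC, without the excess in library 1 that the members had. The list summed to 18.1, 17.4 and 16.5 CPM in pEpiC libraries 1, 2 and 3. Most of that was H2-DMa, with 143, 148 and 129 counts, and H2-DMb1, with 232, 213 and 211, so the sum hides the rise of H2-Ab1.

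Of the further resident macrophage genes, 4 of 9 could be tested, with Siglec1, Stab1 and Gas6 higher and Cbr2 lower. Of all genes tested, 39.8% were higher and 38.5% lower. Siglec1, which encodes the sialic acid receptor CD169, had 6, 3 and 1 counts in CDC against 243, 108 and 90 in pEpiC. Stab1, a scavenger receptor, had 27 counts in each CDC library and 1666, 526 and 495 in pEpiC. Gas6 was abundant in all kinds and had a library 1 ratio of 1.16. Vsig4 had 6 counts in each pEpiC library. Of 10 monocyte and recruited macrophage genes, 4 could be tested and 3 were higher (Plac8, Ccr1 and Nlrp3). Plac8 had 83, 92 and 68 counts in CDC against 576, 523 and 732 in pEpiC. Its library 1 ratio was 0.911, while those of Ccr1 and Nlrp3 were 2.87 and 2.98. Ly6c2, a defining marker of classical monocytes, had 0 counts in pEpiC and Il1b had 1, 0 and 1. Tnf had 0 counts in CDC against 43, 8 and 7 in pEpiC.

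Growth factors and attractants of macrophages were more often lower than higher in pEpiC. Of 10 listed genes, 8 could be tested, 2 were higher in pEpiC (Ccl12 and Il34) and 5 were lower, where 38.5% of all genes tested were lower (Cx3cl1, Mif, Ccl7, Ccl2 and Csf1), with a median log2 change of −1.31. Csf1, the main ligand of Csf1r, had 59266, 53665 and 57208 counts in CDC, 12611, 15708 and 15723 in CDC-EpiC and 29392, 30502 and 33645 in pEpiC. CDC thus held the most Csf1 and few macrophage genes (log2 −0.97 in pEpiC against CDC, SE 0.08, adjusted p 1.1e-06 in edgeR). Il34, the other ligand, had 42, 42 and 32 counts in CDC, 7, 6 and 7 in CDC-EpiC and 73, 69 and 83 in pEpiC. Ccl12, a monocyte attractant that macrophages make, had 0 counts in each CDC and CDC-EpiC library and 84, 29 and 28 in pEpiC, with a library 1 ratio of 2.93. None of the other 7 genes of the list with enough counts had a ratio of 2 or more.

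**Figure D4:**
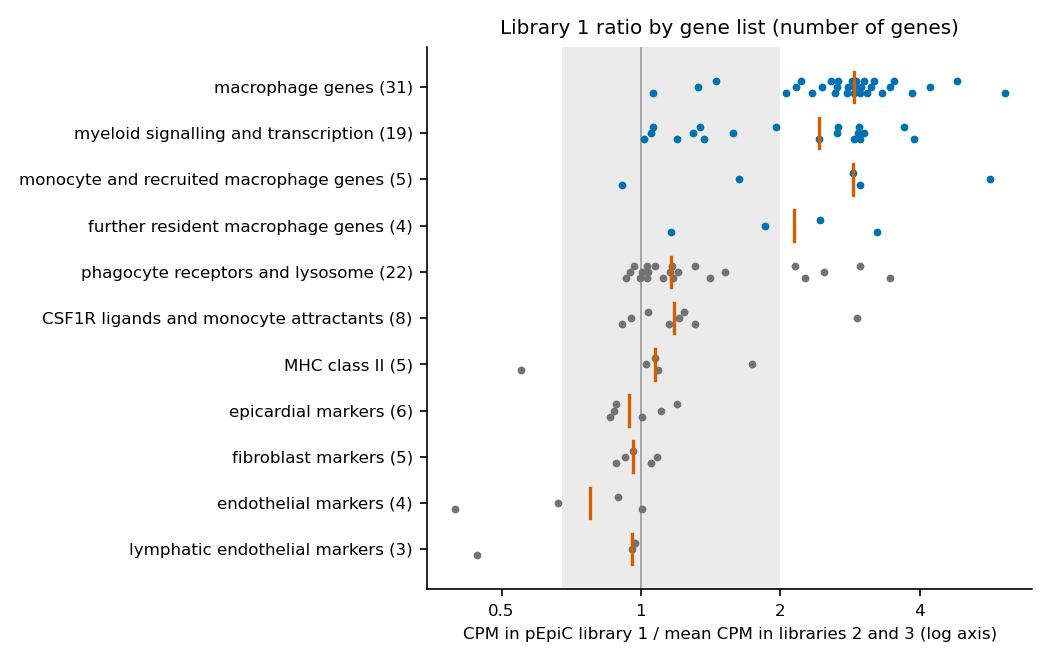
CPM in pEpiC library 1 divided by the mean CPM of libraries 2 and 3 for the genes of 11 lists on a log axis, 1 point per gene with at least 20 counts over pEpiC, the list's median as an orange bar, and the central 95% of all genes in grey. The medians are 2.89 for the macrophage genes and 2.43 for myeloid signalling, and 0.945 for the epicardial and 0.961 for the fibroblast markers.

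Markers of T, B and NK cells, neutrophils and red blood cells were near 0 in pEpiC, while some dendritic and mast cell markers were read. The T, B and NK cell markers summed to 18, 25 and 17 counts in pEpiC libraries 1, 2 and 3, with 1 gene tested (Cd8a, log2 0.14, adjusted p 0.732 in edgeR) and none higher. The neutrophil markers summed to 6, 2 and 3 counts and the red blood cell markers to 5, 4 and 2, and no gene of either list could be tested. Of the mast cell markers, Cpa3 was higher with 11, 19 and 23 counts in pEpiC and Mcpt4 lower with 9, 17 and 10, so that neither had its highest count in library 1. Of the dendritic cell markers, Zbtb46 was higher, with 122, 108 and 120 counts in CDC against 217, 217 and 225 in pEpiC, and Xcr1 was lower, with 57, 63 and 82 against 18, 21 and 10. Endothelial markers summed to 427, 476 and 486 counts, with Tek and Kdr higher than in CDC and Pecam1 at 6, 1 and 17. Lymphatic endothelial markers rose mainly by Pdpn, which other cells also make, with Prox1 at 40, 37 and 46. The cardiomyocyte markers summed to 60, 61 and 38 counts. No gene of these lists with at least 20 counts over pEpiC had a library 1 ratio of 2 or more.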

How the data were processed

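Polyadenylated RNA was sequenced per the labels on a BGISEQ-500 (paired reads of 100 bases), in 9 libraries of 3 kinds (3 each). The authors deposited 1 table with expected counts, FPKM and TPM per library. 30.3% of the expected counts were not whole (tolerance 1e-06), as RSEM gives them. The submitters' processing notes name mm10, HISAT2 2.0.4, Bowtie2 2.2.5, RSEM 1.2.12 and DESeq2 1.4.5. The annotation and the use of strand are not given in the sources used here, so reads of near-identical or overlapping genes are uncertain. 9 columns of means were not used. Libraries were grouped by the kind that their column names match in the labels, and their numbers were not taken to pair them.

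Expected counts were rounded and fitted in edgeR 4.0.16 (R 4.3.3) for each pair of kinds alone, with filterByExpr (minimum count 10, minimum total 15), TMM scaling, and the quasi-likelihood functions glmQLFit and glmQLFTest. Benjamini-Hochberg adjustment covered all genes tested, with a threshold of 0.05. The fit was tested on simulated data. Levels are CPM after TMM over the 9 libraries, and means carry the SD. Ratios of summed levels carry exact 95% conditional binomial intervals, and for a group at 0 a floor of 3 counts gives a bound. The alternatives were DESeq2 1.42.0, limma 3.58.1 on log2(TPM + 1) and log2(FPKM + 1) (pseudocount 1), other scalings and filters, 1 fit of all libraries, a replicate block, and leaving out each library. A fit with CDC library 3 alone was added after seeing the data, since red blood cell genes were read in the other CDC libraries.

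The members and lists were chosen with earlier results of these data known, so no p is given for a list. Full values are given for the 4 markers, for the 8 members with the highest TPM in pEpiC and for members called in the clone against CDC. Other members are given by counts, and genes of the further lists are those with the largest and smallest changes or those needed to describe a count. Python 3.11.15 with pandas 2.3.3, scipy 1.17.1 and matplotlib 3.10.9 made the tables and figures. Promoter windows were matched by gene ID to RefSeq (GRCm38.p6), and windows on chromosome 18 are not shown.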

Additional observations from a re-analysis of the deposited data

How the results depend on the processing

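The 3 counts of called members, their summed level and the library 1 ratio kept their value, within 1.5 times for a count and 1 SD for a level, in 53 of 56 values under alternatives. The summed level in pEpiC was 748 CPM and 467 without pEpiC library 1, a move of over 1.5 times that 1 SD covers because library 1 widens that SD. With at least 10 counts required in every library, 4 members were higher in pEpiC than in CDC in place of 26, and 5 were lower in CDC-EpiC than in pEpiC in place of 26, because fewer genes were tested. With no filter, 7 members were called in CDC-EpiC against CDC in place of 4. Leaving out 1 library at a time gave 25 to 27 members higher in pEpiC, 4 to 5 called in the clone against CDC and 26 to 28 lower in the clone than in pEpiC. The library 1 ratio ranged from 2.83 to 2.94 over its alternatives. 2 members near 0 changed sign. Cd14 in pEpiC against CDC was −0.09, but 0.027 with library size alone and 0.22 with TPM, and −0.80 to 0.18 (log2) with 1 library left out. Folr2 in CDC-EpiC against CDC was −0.01, but 0.049 with library size alone, 0.53 with CDC library 3 alone, and −0.22 to 0.16 with 1 library left out. TPM moved the median of all genes tested by 0.41 (log2) in pEpiC against CDC and −0.33 in CDC-EpiC against pEpiC, while the main fit had 0.02 and −0.02. With CDC library 3 alone, Pf4 and Csf1r no longer passed in pEpiC against CDC (log2 2.43 and 1.03). The library numbers did not pair the libraries, since same-numbered libraries deviated together with correlations of −0.09 to 0.14. With the replicate block 26 members were higher in pEpiC, 4 were called in the clone against CDC, and 27 were lower in the clone than in pEpiC, Cd14 being the addition (adjusted p 0.0318). Members under about 10 counts per library, such as Ccr2, Lyve1 and F13a1, were too shallow to compare.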

Other observations

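Genes outside every list were searched for the pattern of the macrophage markers, that is, at most 3 counts in every CDC and CDC-EpiC library and at least 100 in pEpiC library 1. In all 93 genes had it, 11 of them members, 6 on the further lists and 76 on none. Of these 76, 38 had a library 1 ratio of at least 2 and 33 had a ratio of 0.5 to 1.5. Since the search used pEpiC library 1, the genes are a description and have no test.

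The 15 with the most counts in library 1 fell on both sides. Lilrb4a, an inhibitory receptor of myeloid cells, had 0 counts in each CDC and CDC-EpiC library and 1492, 466 and 563 in pEpiC libraries 1, 2 and 3, a library 1 ratio of 2.88. C5ar1, the receptor for the complement fragment C5a, had 645, 247 and 190 counts (ratio 2.93), and Nckap1l, an actin regulator of blood cells, had 598, 182 and 211 (ratio 3.02). Tlr13, a sensor of bacterial ribosomal RNA, Lilr4b, Myo1f, Ms4a6d and Pirb had ratios of 2.63, 2.84, 2.97, 4.14 and 2.53. The others lay near 1. Srpx2, with 1766, 1611 and 1418 counts, had a ratio of 1.16, C1qtnf7 of 1.14, Cd59a of 1.09, Olfml1 of 1.02, Srpx of 0.944 and Cdkn2b of 0.876. Mmp12, the elastase named for macrophages, had 726, 492 and 627 counts in pEpiC and a ratio of 1.29, below that of 30 of the 31 macrophage genes measured.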
